A study of Mus musculus with 3186 samples.

Results

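Venule-side capillary endothelial cells are the cells that line the brain capillaries where these run into the venules. They were chosen here by 8 genes among the 1445 cells of the Cldn5(BAC)eGFP line, in which green fluorescent protein driven from a bacterial artificial chromosome with Cldn5 sequences labels brain endothelium. A cell was a member if Slc38a5, which encodes a sodium-coupled carrier of glutamine and other neutral amino acids, reached 50 CPM (counts per 1000000 reads of the cell). In addition Vcam1 had to be under 20 CPM, Apln under 50 CPM, and at most 1 of the 5 arterial genes Bmx, Gkn3, Sema3g, Vegfc and Efnb2 could reach 20 CPM. The place of a cell along the vessel was not measured, so the name of the members rests on these 8 genes. Of the 1445 cells 390 met the rule, which is 27.0% (95% exact binomial interval 24.7 to 29.4), out of 3186 cells in the whole series. They were compared with 651 cells of the same line that had Slc38a5 under 50 CPM and met the same arterial limit, called the compared cells below. Of these, 623 also had Vcam1 and Apln below the limits used for the members.

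All cells came from brains of C57BL/6 mice, adults 12 to 15 weeks of age, and were untreated as far as the labels say. The series also holds cells of mice that carry both Pdgfrb(BAC)eGFP and NG2dsRed, reporters of mural cells, and of Pdgfra-H2BGFP mice, used below only as a check. Single cells were sorted by fluorescence into 384-well plates and sequenced by Smart-seq2, a full-length method without molecular tags, so a read is not a molecule. The members lay on all 4 plates of the line, with 111 of 361 cells on plate EC3 (30.7%), 100 of 359 on EC4 (27.9%), 90 of 361 on EC5 (24.9%) and 89 of 364 on EC6 (24.5%). No animal is named, so the line is 1 sample: no test between groups of its cells was made, the plates give only a range, and that range may be technical.

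Blood flows through the brain from arterioles into capillaries and on into venules, and the endothelium changes along this path. Arterial endothelium is known for Notch signalling and connexins, capillary endothelium for the carriers of the blood-brain barrier, such as the lipid carrier Mfsd2a, and venous endothelium for von Willebrand factor, the transcription factor Nr2f2 and the adhesion molecules that leukocytes use. Slc38a5 is a known marker of the venous end of this path.

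Depth was alike in the groups, with a median of 345572 reads per member (102985 to 593546) and 337837 per compared cell. Members had a median of 2642 genes with a read and compared cells 2455. With every cell thinned to 90000 reads the medians were 2333 and 2183 genes. All 12 endothelial markers were read in both groups, and their sum was 59453 CPM in the members (56356 to 64842 by plate) and 55008 CPM in the compared cells (53195 to 57480). Cldn5, the tight junction gene whose sequences drive the reporter, was at 31206 CPM in members and 25285 CPM in compared cells. The cells were sorted by this reporter, so Cldn5, which is part of both sums, is only a description. The label endothelial rests on the other markers, none of which was under 1 CPM in either pool. Markers of other cell types were low, with pericyte markers summing to 63.1 and 57.4 CPM, smooth muscle markers to 34.6 and 28.4 CPM and fibroblast markers to 0.406 and 2.05 CPM in members and compared cells. Erythroid markers were lower in the pool of the members, at 34.3 CPM (0.467 to 133 by plate) against 345 CPM (28.5 to 521), and so were markers of microglia and macrophages, at 23.7 CPM (0.518 to 81.5) against 113 CPM (3.76 to 392). The plates did not agree, since members were higher in erythroid markers on EC4 (133 and 28.5 CPM) and in microglia markers on EC6 (81.5 and 3.76 CPM). Few cells reached 1000 CPM, with 1 member and 9 compared cells for erythroid markers and 1 and 5 for microglia markers. The median member had no read of any of these lists. With 49 cells left out whose blood or microglia markers reached 100 CPM, 14 of them members, the log2 ratio of Vwf described below was 1.31 in place of 1.36. Astrocyte markers summed to 213 and 350 CPM, of which Gja1, a connexin that these endothelial cells also express, gave 195 and 292 CPM.

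Slc38a5 (chrX:8271133-8280179, plus strand, mm10) chose the members, so its levels are a description. Of all 1445 cells 616 had no read of it, 297 lay above 0 and below 20 CPM, 15 between 20 and 50 CPM, and 19 between 50 and 100 CPM, while 129 reached 2000 CPM. Few cells thus lay near the limit, as the plot of cells by Slc38a5 level shows. Just inside the limit lay members at 54.2, 55.5 and 68.2 CPM, and just outside it cells at 49.0, 48.1 and 44.0 CPM. Members ranged from 54.2 to 9822 CPM with a median of 875 CPM, and their pooled level was 1640, 1320, 1041 and 1134 CPM on plates EC3, EC4, EC5 and EC6. The compared cells had 2.08 CPM in the pool and a read in 34.1% of cells. In the mural line 3.91% of the 1406 cells with Cldn5 under 1000 CPM had a read, at a median depth of 339088 reads per cell. Slc38a5 was also high in the 111 Vcam1-positive venous cells (1698 CPM, 83.8% of cells at 50 CPM or more), and low in the 285 arterial cells (14.8 CPM, 2.81% of cells). Of all cells at 50 CPM or more, 99 were left out for Vcam1, 20 for Apln and 8 for arterial genes.

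**Figure D1:**
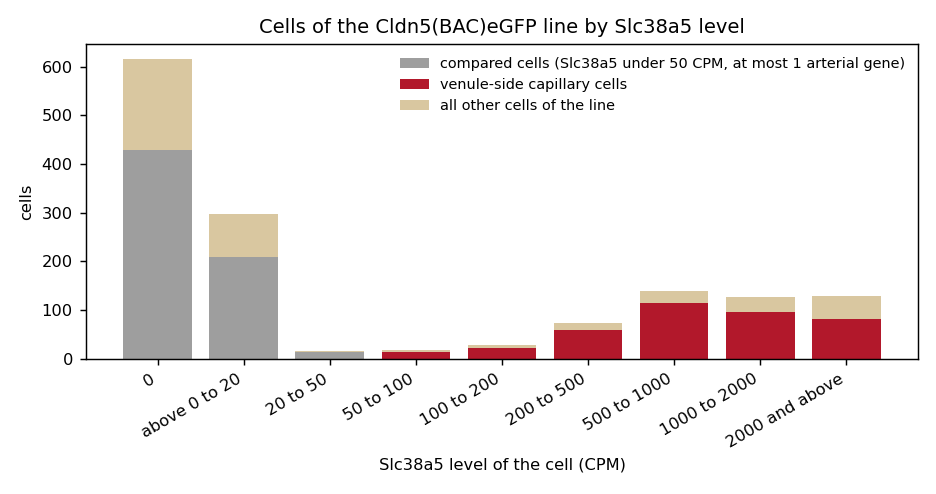
Number of cells of the Cldn5(BAC)eGFP line (y axis) in each range of Slc38a5 level (x axis, CPM), stacked by compared cells, venule-side capillary cells and all other cells of the line. Only 15 cells lie between 20 and 50 CPM, against 297 above 0 and below 20 CPM and 139 between 500 and 1000 CPM.

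Of 22 gene lists, the venous markers had the highest median ratio of members to compared cells and the arterial markers the lowest. Levels were pooled over the cells of a group, and log2 ratios had 1 CPM added to each side, which understates the difference of low genes. Of 10030 genes with at least 5 CPM on either side, 220 (2.19%) were at least 2-fold higher in the members and 306 (3.05%) at least 2-fold lower. On every plate and in the pool, 53 genes (0.528%) were at least 1.5-fold higher and 115 (1.15%) at least 1.5-fold lower. The median log2 ratio of all these genes was 0.00. The 2-fold counts changed with the settings: without plate EC3, EC4, EC5 or EC6 they lay between 309 and 340 higher and between 355 and 434 lower genes, and with 5 CPM added they were 70 and 136. Only 4 genes were higher on every plate by this fold, at 50 CPM or more and with a read in 25% or more of the members, and 14 genes met the same conditions in the lower direction. That these genes agree over the plates follows from how they were chosen.

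Vwf (chr6:125546774-125686679, plus strand), which encodes the platelet-binding von Willebrand factor, was the highest of the 4 by ratio. Its pooled level in members was 491, 461, 411 and 403 CPM on plates EC3, EC4, EC5 and EC6, and in compared cells 265, 166, 124 and 141 CPM. Every plate of the members lay above every plate of the compared cells. In the pools this was 445 CPM (95% exact Poisson interval 441 to 449, counting error only) against 172 CPM, a log2 ratio of 1.36. Reads were found in 56.7% of members and 40.7% of compared cells, and in 4.48% of the cells of the mural line with little Cldn5, whose depth was alike.

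Fn1 (chr1:71585520-71653200, minus strand), the matrix protein fibronectin, was at 1149, 1394, 1611 and 1679 CPM on the plates of the members and at 717, 672, 919 and 952 CPM on those of the compared cells. The lowest plate of the members again lay above the highest of the compared cells, with a log2 ratio of 0.80, although nearly all cells of both groups had reads of it (92.8% and 85.9%). Adk, adenosine kinase, which removes adenosine by phosphorylation, had 68.1, 89.8, 93.6 and 94.0 CPM against 29.4, 57.5, 57.5 and 31.1 CPM, a log2 ratio of 0.96. Its groups were apart too, with plate EC3 low in the members. Adk is not confined to endothelium, since it had 229 CPM in the mural line.

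**Figure D2:**
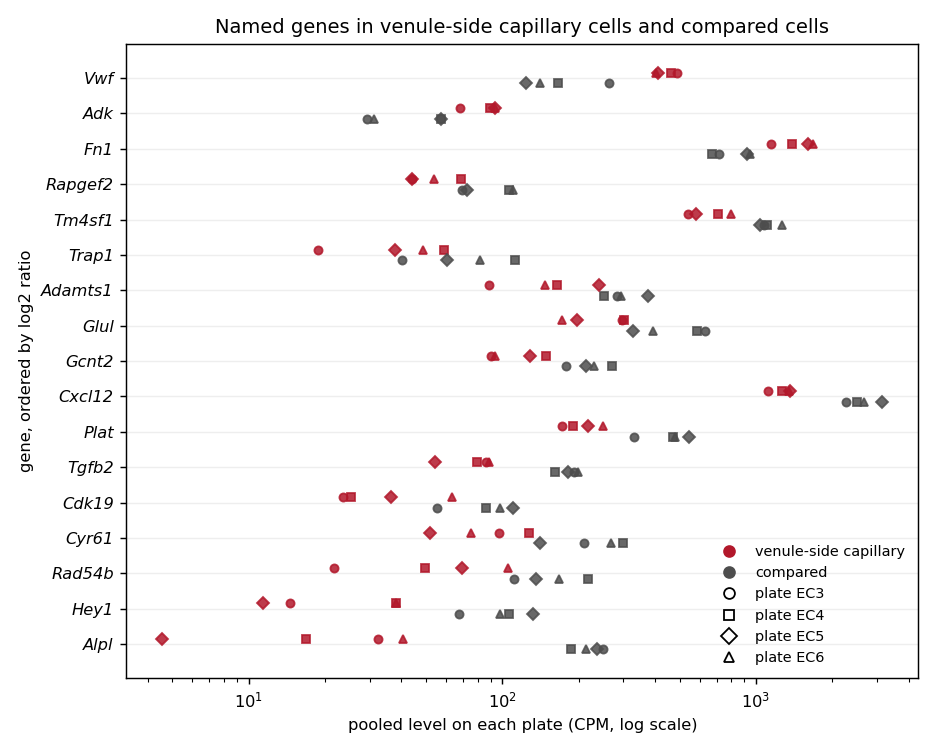
Pooled level on each plate (x axis, CPM, log scale) of Vwf, Adk and Fn1, which were higher, and of 14 genes that were lower in venule-side capillary cells (red) than in compared cells (grey), with 1 point per plate and group. Vwf, Adk and Fn1 have all red points to the right of the grey ones, and among the lower genes the plates of Cdk19 and Trap1 overlap between the groups.

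Of the 20 venous and venular markers 14 had enough reads, and 8 of these were at least 2-fold higher in the members, against 2.19% of all genes, while none was 2-fold lower. The median log2 ratio of the 14 was 1.29. On every plate 3 of the 14 were 1.5-fold higher, against 0.528% of all genes: Vwf, Nr2f2 and Flrt2. The markers were selected with results of these data known, so this count is not independent evidence of their direction. Nr2f2 (chr7:70351944-70366735, minus strand), the COUP-TFII transcription factor that specifies venous identity, had 22.4, 29.7, 32.7 and 40.6 CPM by plate in members. In the compared cells it had 10.6, 3.64, 6.63 and 11.4 CPM. The log2 ratio was 1.78, with reads in 20.0% of members and 8.91% of compared cells. Nr2f2 is also a gene of mural cells (264 CPM in the mural line). Without the cells in which the summed markers of another vascular or glial type reached 1000 CPM, its log2 ratio was 1.99. That setting left out 125 member and compared cells, 36 of them members. Gja1 is on its astrocyte list, which reached 1000 CPM in 29 members and 72 compared cells. The cells left out may thus include endothelial cells rich in Gja1, also where this setting is used for Hey1 and Car4 below. Flrt2, an adhesion and guidance protein, stood at 106 CPM in members (69.7 to 173 by plate) and 37.2 CPM in compared cells (24.3 to 51.6), and at 7.64 CPM in the mural line.

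Of the venous list, the inflammatory genes Il1r1 and Icam1 were higher in the pool and uneven over the plates. The interleukin-1 receptor Il1r1 had 48.8 CPM against 17.2 CPM, with members above on all plates but a ratio near 0 on EC4, where the levels were 31.9 and 28.0 CPM. Icam1, an adhesion molecule for leukocytes, had 118, 81.0, 164 and 160 CPM against 86.8, 31.2, 83.9 and 82.7 CPM, a log2 ratio of 0.82. The groups overlapped, and the ratio was 1.49 against the compared cells with little Vcam1 and Apln. Other markers of this list did not differ by plate range, among them the angiopoietin receptor Tek (1541 and 1510 CPM) and the ephrin receptor Ephb4 (137 and 123 CPM). The chemokine-binding receptor Ackr1, a marker of larger venules, had no read in the members, against 22.1 CPM in the venous cells. The exact Poisson bound for the members, 0.0277 CPM, covers counting error only and not the spread between cells.

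Arterial markers were lower. Of 14 with enough reads, 7 were at least 2-fold lower in members (3.05% of all genes were), none was 2-fold higher, and 6 were 1.5-fold lower on every plate (1.15% of all genes). The median log2 ratio was -1.31. The rule allows 1 arterial gene in either group, and the 5 it used were themselves uneven, with Gkn3 at 2.34 CPM in members and 131 CPM in compared cells and Bmx at 1.95 and 14.4 CPM. With no arterial gene allowed at 20 CPM in either group the median was -0.72. Settings that leave the arterial limit as it is moved it too, over 13 to 15 genes. It was -0.79 with the mean of per-cell CPM, -0.77 with cells thinned to 90000 reads and -0.86 with a filter at 20 CPM. In others it stayed, at -1.30 without plate EC5 and -1.33 without cells under 200000 reads. Alpl (chr4:137741733-137796384, minus strand), the tissue-nonspecific alkaline phosphatase, had 32.2, 16.8, 4.57 and 40.7 CPM in members and 250, 187, 236 and 213 CPM in compared cells. The highest plate of the members lay far below the lowest of the compared cells, and the log2 ratio was -3.15, also where no arterial gene was allowed. Reads of Alpl were found in 17.7% of members and 33.3% of compared cells, and 5.13% and 23.2% reached 50 CPM. The pool of the compared cells thus rests on a minority of them. Alpl reached 1237 CPM in the arterial cells. Hey1 (chr3:8663359-8667256, minus strand), a transcription factor induced by Notch, had 14.5, 38.1, 11.4 and 38.0 CPM against 67.8, 107, 132 and 97.8 CPM, a log2 ratio of -1.96. It was -1.97 with no arterial gene allowed, -1.60 without plate EC5, and -2.76 without the cells in which the summed markers of another vascular or glial type reached 1000 CPM. Hey1 too was read in a minority of cells, 13.3% of members and 25.8% of compared cells, and 5.13% and 18.4% reached 50 CPM. Of the others, the netrin receptor Unc5b was at 16.9 and 59.9 CPM, the matrix protein Fbln2 at 1.69 and 23.7 CPM, and the connexin Gja4 at 5.92 and 25.4 CPM. Markers without such a difference included Jag1 (72.6 and 78.7 CPM) and Sox17 (230 and 260 CPM).

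The other genes that were lower on every plate included secreted and signalling proteins. Cxcl12 (chr6:117168535-117181367, plus strand), the chemokine ligand of CXCR4, had 1117, 1270, 1359 and 1349 CPM in members and 2270, 2494, 3155 and 2672 CPM in compared cells. The groups were well apart, with a log2 ratio of -1.07, and the plates lay close around it (-1.21 to -0.97). Plat, the tissue plasminogen activator, had 172, 189, 219 and 250 CPM against 331, 470, 546 and 478 CPM, a log2 ratio of -1.16. The growth factor Tgfb2 had 86.2, 79.7, 54.2 and 88.5 CPM against 192, 162, 181 and 199 CPM, a log2 ratio of -1.23. Plat and Tgfb2 were both apart over the plates. Glul, the enzyme that makes glutamine, had 297, 302, 196 and 172 CPM in members and 631, 587, 328 and 392 CPM in compared cells, a log2 ratio of -0.95, and was read in 94.4% and 96.0% of cells. Its level was lower on plates EC5 and EC6 than on EC3 and EC4 in both groups. Of the remaining genes named, log2 ratios were -1.40 for the DNA repair gene Rad54b, -1.35 for the matricellular protein Cyr61, -1.27 for the Mediator kinase Cdk19 and -0.95 for the metalloprotease Adamts1. They were -0.96 for the glycosyltransferase Gcnt2, -0.85 for the mitochondrial chaperone Trap1, -0.79 for the surface protein Tm4sf1 and -0.77 for the Rap activator Rapgef2. Rad54b shares its locus with Fsbp, to which reads were assigned separately (0.819 and 0.684 CPM).

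Most capillary markers lay within 2-fold of the compared cells. Of 15 none was 2-fold higher and 2 were 2-fold lower (13.3%, against 3.05% of all genes), Cxcl12 and Tgfb2, with a median log2 ratio of -0.15. Car4, a membrane-bound carbonic anhydrase, had 2441, 2247, 1859 and 1990 CPM in members and 1263, 1276, 1326 and 1403 CPM in compared cells, a log2 ratio of 0.71. The groups were apart, as they were for 1.82% of all genes with the members above, and 94.9% of members had a read against 78.3%. Car4 is also read in mural cells (1677 CPM in the mural line), and its log2 ratio was 0.68 without the cells with markers of other types. Mfsd2a, which carries lysophosphatidylcholine with omega-3 fatty acids into the brain, went the other way with 1150, 1015, 1049 and 955 CPM against 1582, 1515, 1329 and 1171 CPM, a log2 ratio of -0.41. The thyroid hormone and organic anion carrier Slco1c1 was also lower on each plate (2142 and 2809 CPM in the pools, -0.39), as were 2.34% of all genes by plate range. The glucose carrier Slc2a1 (7100 and 7362 CPM), the efflux pump Abcb1a (1142 and 1104 CPM) and the lactate carrier Slc16a1 (1481 and 1345 CPM) overlapped between the groups.

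None of the 19 iron and metal genes differed 2-fold, which in a list of this size is near the 2.19% higher and 3.05% lower of all genes, and their median log2 ratio was 0.01. The iron exporter ferroportin, Slc40a1, nevertheless lay higher on every plate, at 1516, 1766, 1655 and 1504 CPM in members and 960, 1403, 1074 and 1198 CPM in compared cells, a log2 ratio of 0.48. The transferrin receptor Tfrc had 1210, 1668, 1096 and 1639 CPM against 955, 1167, 1018 and 1013 CPM, 0.43 on the log2 scale, with overlapping plates. Both genes were low in the mural line (26.5 and 46.8 CPM).

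Most other amino acid carriers lay within 2-fold of the compared cells. Of 23 with enough reads none was 2-fold higher and 2 were 2-fold lower (8.70%, against 3.05% of all genes), and the median log2 ratio was -0.02. Its close relative Slc38a3, also a system N carrier of glutamine, had 1656, 1557, 1733 and 1554 CPM in members and 1437, 1238, 1416 and 1203 CPM in compared cells. Members lay above on every plate by a small margin, with a log2 ratio of 0.30. The subunits of the large neutral amino acid carrier overlapped between the groups, with Slc7a5 at 1752 and 1780 CPM and Slc3a2 at 2135 and 2029 CPM. The system A carrier Slc38a2 had 128 and 176 CPM, and the 2 genes that were 2-fold lower, Slc1a2 (8.47 and 18.3 CPM) and Slc1a5 (2.25 and 9.39 CPM), were near the read limit. Among the 32 carriers of sugars, organic ions and drugs, 3 were 2-fold higher (9.38%, against 2.19% of all genes) and none lower, with a median of 0.08. The 3 were low genes, such as the prostaglandin carrier Slco2a1 with 12.0 CPM in 3.85% of members against 0.0937 CPM. The sterol transporter Abcg1 (263 and 172 CPM, log2 ratio 0.62) had ratios of 0.54 to 0.60 on the 4 plates. Its plates differed more from each other than the groups did, so the ranges of the groups overlapped.

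**Figure D3:**
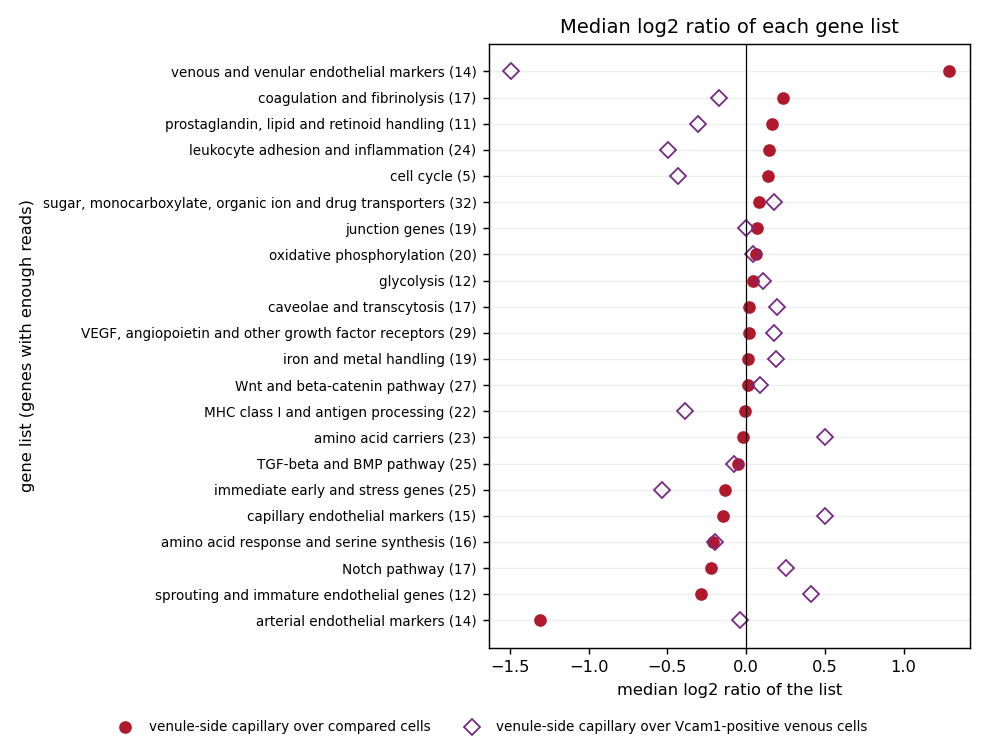
Median log2 ratio (x axis) of each gene list (y axis, with the number of genes with enough reads) for venule-side capillary cells over compared cells (filled) and over Vcam1-positive venous cells (open diamonds). The venous list lies at 1.29 over compared cells and -1.49 over venous cells, the arterial list at -1.31 over compared cells and -0.04 over venous cells, and the amino acid carriers at -0.02 and 0.50.

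Genes of signalling pathways differed in the share past 2-fold. In the Notch list 1 of 17 genes, Hey1, was 2-fold lower (5.88%, against 3.05% of all genes) and none higher, with a median log2 ratio of -0.22. The ligand Dll4 had 181 CPM in members (113 to 224 by plate) and 255 CPM in compared cells (217 to 303), the target Hes1 116 and 162 CPM, and the receptor modifier Lfng 35.4 and 20.9 CPM. In the TGF-beta and BMP list 4 of 25 genes were 2-fold lower (16.0%, against 3.05% of all genes) and none higher, with a median of -0.05. The 4 were Tgfb2, Tmem100, Smad6 and Acvr2b. Tmem100, a membrane protein induced by BMP signalling in endothelium, had 5.08 and 40.9 CPM. The pseudoreceptor Bambi lay above on every plate without reaching 1.5-fold on all, at 85.9 and 49.3 CPM. None of the 27 Wnt and beta-catenin genes differed 2-fold (median 0.01), against 2.19% higher and 3.05% lower of all genes, and their endothelial transcription factor Lef1 had 722 and 799 CPM with overlapping plates. The Norrin receptor Fzd4 had 100.0 and 60.8 CPM in the pools, but 54.0 and 57.2 CPM on plate EC4, so the plates did not agree.

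Of 29 genes of VEGF, angiopoietin and other growth factor signalling, 3 were 2-fold higher (10.3%, against 2.19% of all genes) and 2 lower (6.90%, against 3.05%), with a median of 0.02. The VEGF receptor Kdr overlapped (706 and 721 CPM), and the decoy receptor Flt1 lay below on every plate (2794, 2670, 3380 and 3196 CPM against 3680, 3616, 4326 and 3713 CPM, log2 ratio -0.36). Angpt2, the Tek antagonist and the only gene of the 12 in the sprouting list that was 2-fold lower (8.33%, against 3.05% of all genes), had 17.9, 57.3, 57.5 and 73.7 CPM in members and 140, 92.3, 143 and 155 CPM in compared cells. Its plates were apart, with a log2 ratio of -1.41. The apelin receptor Aplnr was 2-fold higher in the pool (47.8 and 12.6 CPM) but lower on plate EC4 (18.1 and 22.1 CPM), so the plates did not agree.

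In coagulation and fibrinolysis 3 of 17 genes were 2-fold higher (17.6%, against 2.19% of all genes), Vwf, Ptgis and F8, and 1 was lower, Plat (5.88%, against 3.05%), with a median log2 ratio of 0.23. Ptgis, prostacyclin synthase, had 48.9, 58.6, 19.7 and 19.3 CPM in members and 19.0, 8.10, 0.337 and 5.07 CPM in compared cells, a log2 ratio of 2.12. The plates were narrowly apart, and it was read in 10.3% of members and 2.15% of compared cells. Thrombomodulin, Thbd, the thrombin receptor that activates protein C, overlapped at 288 and 223 CPM. In the list of prostaglandin, lipid and retinoid genes 2 of 11 were 2-fold higher (18.2%, against 2.19% of all genes), Ptgis among them, with a median of 0.17. The apolipoprotein Apod had 246 and 141 CPM, and its plates were apart.

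Of 24 genes of leukocyte adhesion and inflammation 3 were 2-fold higher (12.5%, against 2.19% of all genes) and 1 lower (4.17%, against 3.05%), and the median was 0.15 on the log2 scale. The chemokine gene Cxcl10 was among the 3, but was read in 1.54% of members, and most of it lay on plate EC3 (93.7 CPM, against 0.568 CPM on EC5). Without the cells that held blood or microglia markers at 100 CPM or more its log2 ratio was -0.13. Of 22 genes of MHC class I presentation none differed 2-fold (median -0.01), near the shares of all genes in a list of this size, and H2-K1 had 1516 and 1535 CPM, a member of a gene family whose reads can be split between copies. Immediate early and stress genes had 2 of 25 genes 2-fold lower (8.00%, against 3.05% of all genes), Egr1 (31.5 and 97.6 CPM) and Atf3 (56.9 and 119 CPM), and Fos had 282 and 413 CPM. All 3 overlapped over the plates. No gene of the junction, glycolysis, oxidative phosphorylation or cell cycle lists differed 2-fold, over 19, 12, 20 and 5 genes, with medians of 0.07, 0.04, 0.06 and 0.14. At the shares of all genes (2.19% higher and 3.05% lower) lists this short hold few such genes or none, so these counts do not set them apart.

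The members were then placed between the capillary cells rich in Mfsd2a (437 cells with Mfsd2a at 50 CPM or more, Slc38a5 under 50, and the members' limits on Vcam1, Apln and arterial genes) and the 111 Vcam1-positive venous cells. These end groups differed at least 2-fold in 1683 of 10177 genes (16.5%). The level of the members lay between them for 1218 of the 1683 (72.4%). For 392 genes it lay beyond the capillary level and for 73 beyond the venous level. A group that took no part in choosing the genes tends to lie between, so the same share is given for others: it was 57.9% for the 186 capillary cells poor in Mfsd2a, 57.6% for the 285 arterial cells and 36.7% for the 29 Apln-positive cells. All these groups are smaller than that of the 390 members, and whether cell number alters the share was not tested. The end groups also differ in Slc38a5, which chose the members, with 2.10 CPM in Mfsd2a-rich and 1698 CPM in venous cells. Members had 1307 CPM, and the Mfsd2a-poor, arterial and Apln-positive cells 1.96, 14.8 and 1080 CPM. With only the 18 Vcam1-positive cells under 50 CPM of Slc38a5 as venous end, the members' share was 58.7% of 4944 genes. The other groups were not placed there, and whether Slc38a5 alters the share was not tested. On a scale from 0 at the capillary level to 1 at the venous level the median position of the members was 0.26, and it was 0.32 for the 876 genes higher in venous cells and 0.20 for the 807 lower genes. In the members 449 of the 1683 genes (26.7%) lay nearer to the venous level. This share did not set them apart, as it was 25.0% for the Mfsd2a-poor, 27.0% for the arterial and 37.4% for the Apln-positive cells. The medians of the Mfsd2a-poor and arterial cells were 0.18 and 0.19.

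Vwf stood at 171, 58.2, 61.7 and 89.6 CPM on plates EC3 to EC6 in Mfsd2a-rich cells, at 445 CPM in the member pool, and at 2524, 2074, 2022 and 1397 CPM in venous cells. The 3 groups did not overlap, and the share of cells with a read went from 37.3% through 56.7% to 91.9%. After thinning to 90000 reads the shares were 27.5%, 52.6% and 91.9%. Nr2f2 went from 5.44 CPM (2.20 to 6.97 by plate) through 30.8 CPM (22.4 to 40.6) to 95.0 CPM (60.5 to 123). Icam1 went from 34.7 CPM (19.0 to 56.0) through 129 CPM (81.0 to 164) to 658 CPM (398 to 829). In both genes the 3 groups were in this order on each plate, with no overlap. Fn1 went from 727 CPM through 1438 CPM to 2191 CPM. The opposite order held for Cxcl12, with 2879 CPM (2316 to 3572), 1264 CPM (1117 to 1359) and 405 CPM (207 to 695), and for Ivns1abp, a kelch-repeat protein, with 1543, 940 and 178 CPM. The gap junction protein Gja1 had 356 CPM (263 to 396), 195 CPM (136 to 304) and 26.8 CPM (0.25 to 42.1), so that members overlapped the capillary cells and not the venous ones. Dll4 followed the same order, with 298, 181 and 41.5 CPM.

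**Figure D4:**
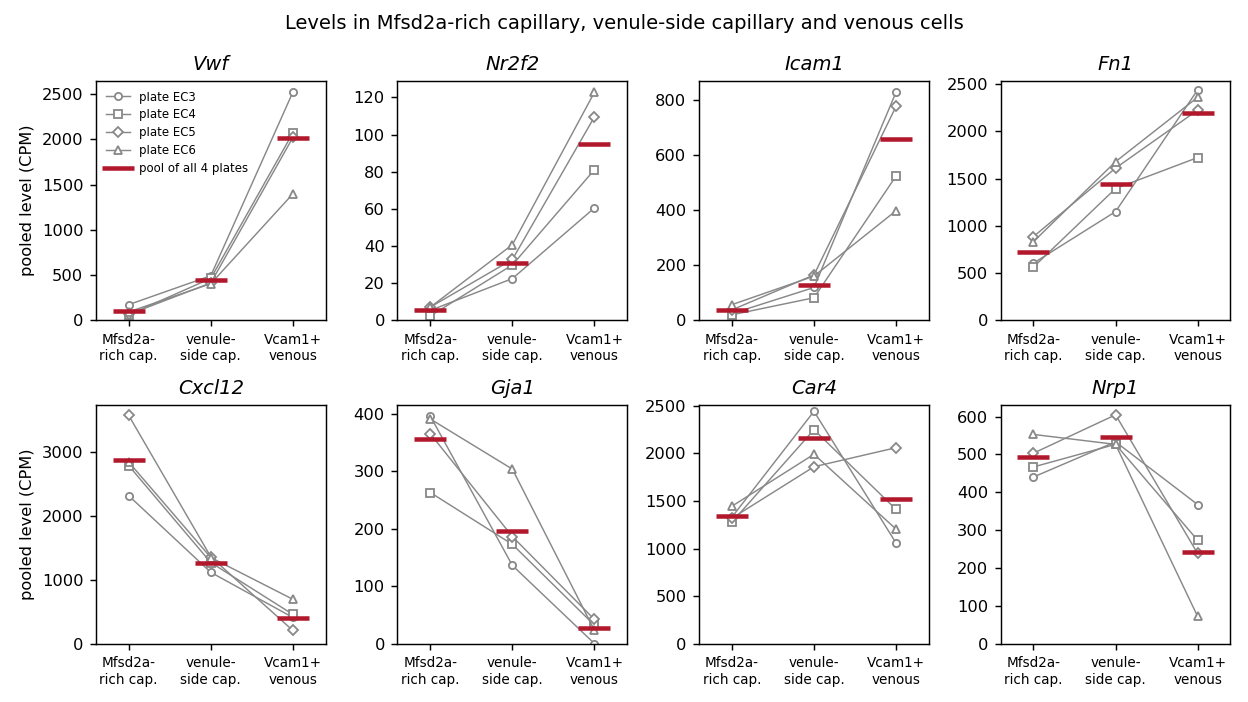
Pooled level (y axis, CPM) of 8 genes in Mfsd2a-rich capillary, venule-side capillary and Vcam1-positive venous cells (x axis), with a grey line per plate and a red bar for the pool. Vwf, Nr2f2, Icam1 and Fn1 are higher and Cxcl12 and Gja1 lower towards the venous cells, while Car4 is highest in the venule-side pool (2156 CPM) and Nrp1 is lower in the venous cells alone.

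Some genes did not lie between. Alpl was as low in the members (24.1 CPM) as in the venous cells (28.8 CPM; 12.7 to 45.9 by plate), against 217 CPM in Mfsd2a-rich cells, and Glul likewise had 247, 249 and 506 CPM. Plat had its lowest pool in the members, with 205 CPM against 306 CPM in venous and 474 CPM in capillary cells, and so had the vasoconstrictor gene Edn1, with 87.7 CPM against 245 and 168 CPM. Other genes had their highest pool in the members. Car4 had 2156 CPM there, 1346 CPM in Mfsd2a-rich cells and 1521 CPM in venous cells, although venous plate EC5 reached 2059 CPM, within the range of the members. Tfrc had 1400 CPM in members, 1137 CPM in Mfsd2a-rich and 793 CPM in venous cells, and Slc38a3 1624, 1341 and 1046 CPM. For Slc38a3 the plates of the members (1554 to 1733 CPM) lay above those of both other groups (1244 to 1468 and 672 to 1286 CPM). Ferroportin, Slc40a1, was at the venous level, with 1608 CPM in members, 1553 CPM in venous and 1171 CPM in Mfsd2a-rich cells.

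Over the Vcam1-positive venous cells, members were at least 2-fold higher in 723 of 10152 genes (7.12%) and 2-fold lower in 757 (7.46%). Over the list genes of the comparison above, the median log2 ratio was -1.49 for the venous markers, 0.50 for the capillary markers and 0.50 for the amino acid carriers. The amino acid carriers went both ways. Of 23, 4 were 2-fold higher in members (Slc1a1, Slc1a2, Slc36a1 and Slc36a4) and 5 lower (Slc7a7, Slc1a3, Slc1a4, Slc1a5 and Slc6a9). The large neutral amino acid carrier Slc7a5 had 1752 CPM in members and 1023 CPM in venous cells, and the cationic amino acid carrier Slc7a1 812 and 521 CPM. Medians were -0.50 for leukocyte adhesion, -0.39 for MHC class I and -0.53 for immediate early genes, as in H2-K1 (1516 and 3216 CPM) and Jun (503 and 830 CPM). The arterial markers went both ways, with a median of -0.04. Of 17 with enough reads in this comparison, whose median was -0.25, 3 were 2-fold higher in members (Hey1, Dll4 and Nrp1) and 5 lower (Mgp, Fbln2, Eln, Edn1 and Bmp4). Hey1 had a log2 ratio of 2.09, the semaphorin and VEGF receptor Nrp1 1.17 and Fbln2 -1.92.

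Within the members, cells with most Slc38a5 had less of Cxcl12, Ivns1abp, Gja1 and Dll4 than those with least, genes chosen after their values were seen. The 97 members between 50 and 500 CPM of Slc38a5, the 115 between 500 and 1000, the 97 between 1000 and 2000 and the 81 from 2000 CPM up had similar depth (medians of 345991, 360442, 331385 and 340236 reads). In these 4 ranges Cxcl12 had 1826, 1377, 1138 and 556 CPM. On plates it spanned 1389 to 2518 CPM in the lowest range and 487 to 718 CPM in the highest, with no overlap. Ivns1abp had 1443, 1140, 656 and 359 CPM, and Gja1 272, 266, 146 and 54.1 CPM. Dll4 had 319, 174, 137 and 76.5 CPM, with a read in 51.5%, 47.0%, 38.1% and 21.0% of cells. The lowest and the highest range did not overlap over the plates for any of these 4 genes. Hey1 was at 62.6, 23.4, 3.63 and 7.84 CPM. Between the highest and the lowest range 11.8% of 10083 genes were 2-fold higher and 13.4% 2-fold lower. Of 15 capillary markers none was 2-fold higher and 3 were 2-fold lower (Rgcc, Ivns1abp and Cxcl12), with 12 below and 3 above and a median log2 ratio of -0.29. Of 14 arterial markers 6 were 2-fold lower and 2 higher, with a median of -0.48. The median of all genes was -0.02.

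The venous list as a whole did not move one way over these ranges. Of 15 markers 3 were 2-fold higher in the highest range, Vwf and Nr2f2 among them, and 1 was lower, Ch25h, with a median of 0.07. Of all genes 11.8% were 2-fold higher and 13.4% lower, so these counts do not set the list apart. Vwf had 268, 366, 612 and 583 CPM, with plates of 144 to 365 CPM in the lowest and 440 to 823 CPM in the highest range. Frem2, an extracellular matrix protein of basement membranes, had 8.74, 18.3, 45.4 and 94.8 CPM, but 3.73 CPM on plate EC5 in the highest range, so its plates overlapped. Nr2f2 was highest in the third range (11.2, 25.9, 59.9 and 27.7 CPM). Levels of 3 carriers lay closer together over the 4 ranges: Slc40a1 had 1613, 1542, 1578 and 1738 CPM, Slc38a3 1768, 1531, 1587 and 1634 CPM, and Slco1c1 2195, 2178, 2089 and 2083 CPM. The capillary marker Car4 had 1789, 2136, 2103 and 2699 CPM, with overlapping plates.

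**Figure D5:**
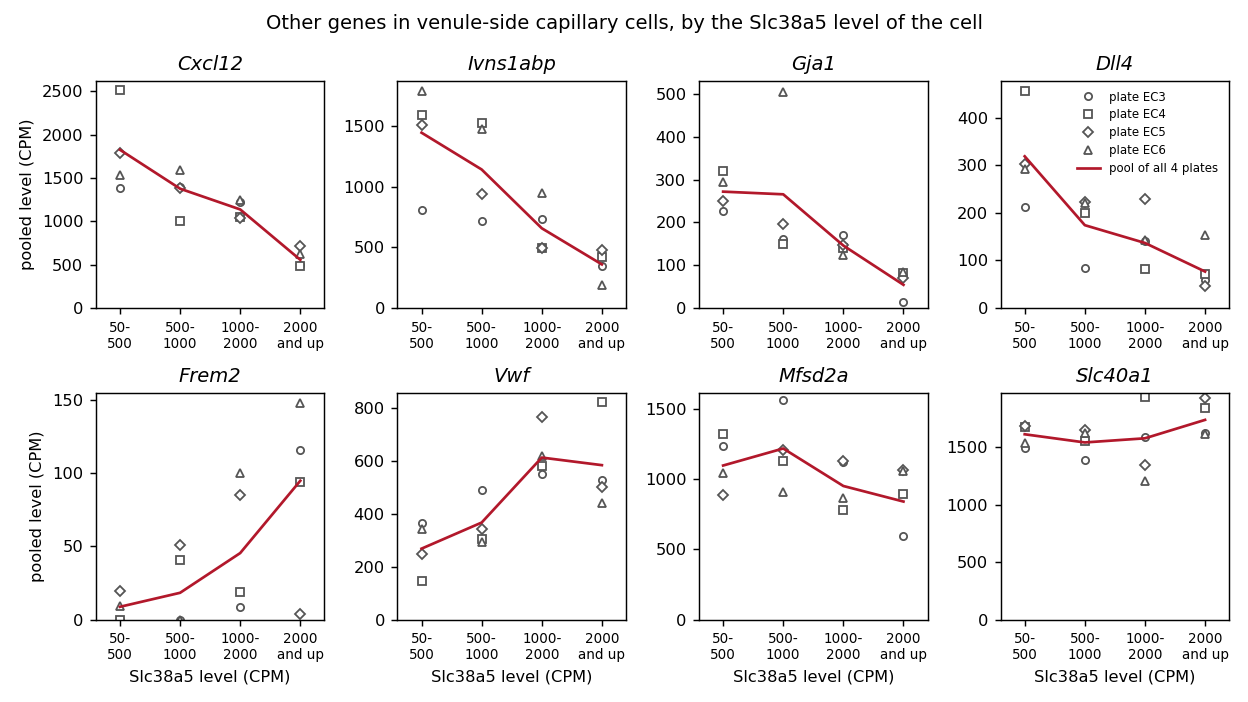
Pooled level (y axis, CPM) of 8 genes in the 390 venule-side capillary cells, by range of their Slc38a5 level (x axis, CPM), with a symbol per plate and a red line for the pool. Cxcl12, Ivns1abp, Gja1 and Dll4 are lower and Vwf is higher in the cells with most Slc38a5, Slc40a1 stays between 1542 and 1738 CPM in the pool, and Frem2 varies widely between plates.

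The members were also a mixture by Vwf and Mfsd2a, which the rule did not use. Vwf reached 50 CPM in 192 of the 390 members (49.2%, 95% exact binomial interval 44.2 to 54.3, and 46.0% to 52.3% by plate). In compared cells this share was 25.8% (22.5 to 29.3), in Mfsd2a-rich cells 19.5% and in venous cells 90.1%. Mfsd2a reached 50 CPM in 66.9% of members (62.0 to 71.6), 68.7% of compared cells and 42.3% of venous cells. Both genes did so together in 113 members (29.0%), in 14.1% of compared cells and in 35.1% of venous cells, and neither did in 12.8%, 19.7% and 2.70%. Members thus shared the Mfsd2a share of the compared cells, while their Vwf share lay between those of compared and venous cells. It was close to that of arterial cells, 49.5%.

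The 129 members with Mfsd2a under 50 CPM were set beside the other 261. Of 14 venous markers 6 were 2-fold higher in the cells low in Mfsd2a, against 7.15% of all genes, and none was 2-fold lower, with 13 above and 1 below and a median log2 ratio of 0.59. Of 14 capillary markers 2 were 2-fold lower (Ivns1abp and Tgfb2), against 8.23% of all genes, and none was higher, with 13 below and a median of -0.47. The median of all genes was 0.01. Vwf was at 715 CPM (548 to 868 by plate) in them and at 319 CPM (201 to 415) in the others, with no overlap, and Nr2f2 at 50.6 and 21.5 CPM. Dll4 was at 62.0 and 237 CPM, Ivns1abp at 267 and 1254 CPM and Cxcl12 at 822 and 1470 CPM, the plates of these 3 again being apart. Slc40a1 (1640 and 1593 CPM), Slc38a3 (1636 and 1619 CPM) and Car4 (2074 and 2195 CPM) overlapped. The cells low in Mfsd2a had a median of 330610 reads and 2482 genes, and the others 351946 reads and 2697 genes. In members with Vwf at 50 CPM or more against those under it, Nr2f2 had 54.8 and 8.08 CPM, Cxcl12 657 and 1837 CPM and Ivns1abp 490 and 1364 CPM, each with plates apart. Slc40a1 (1711 and 1511 CPM) and Car4 (2170 and 2144 CPM) overlapped over the plates there too.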

How the data were processed

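Expression was read from the deposited table of raw read counts, whole numbers per gene (19937) and cell. Per the submitters' processing notes, STAR 2.4.2a and mm10 were used; not given in the sources used here are the counter, annotation, use of strand and filters on cells. The authors' scaled values, used as a score with a sum of 499421 to 500367 per cell, served only for an alternative.

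Counts of the cells of a group were summed and given as CPM of the summed total, with 95% exact Poisson intervals (shares: exact binomial, Clopper-Pearson), which cover counting error only. Genes needed 5 CPM on either side, and ratios had 1 CPM added. The 8 genes of the rule were left out. The members and the 22 gene lists were chosen with earlier results of these data known. Genes were named by rule: up to 15 per direction with 50 CPM and reads in 25% of cells on the higher side and 1.5-fold on each of 4 plates (reporters left out), and up to 3 at each end of a list with 20 CPM. Some single genes that met the rule are not reported here, while counts and lists were used whole. All other genes named, such as Flrt2, F8, Slco2a1, Slc7a5, Kdr or Edn1, were chosen after their values were seen: the genes behind small counts, list genes that differed little, and examples in the placement and within the members. Of the listed symbols 14 were absent from the files. No doublet caller was run and no cell was removed. No 2 cells had identical counts. Positions are from GENCODE M21, where 18903 symbols matched. The alternatives were other limits of the rule, compared cells, pseudocounts, low filters, group values, cells kept, and leaving out each plate. Python 3.11.15 was used with numpy 2.4.6, pandas 2.3.3, scipy 1.17.1 and matplotlib 3.10.9, and the steps were tested on simulated data.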

Additional observations from a re-analysis of the deposited data

Results flagged for a closer look

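In the members, Adk had 68.1 CPM on plate EC3 and 89.8, 93.6 and 94.0 CPM on the other plates, a gap large for a group of 4 values (beyond Dixon's 95% critical value). The shares and named genes gave 19 such groups, and chance marks about 1 in 20, so a mark of this kind is usual.

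Cells that met the rule also occurred in lines outside the comparisons. In the Pdgfrb(BAC)eGFP/NG2dsRed line they were 34 of 1484 cells (2.29%, 95% exact binomial interval 1.59 to 3.19), and 27 of the 34 were among the 78 cells of that line with Cldn5 at 1000 CPM or more. Their median was 3671 CPM of Cldn5 and 709 CPM of Slc38a5. In the Pdgfra-H2BGFP line 5 of 257 cells met it (1.95%, 0.635 to 4.48), 1 of them with Cldn5 at 1000 CPM or more. Their median Slc38a5 level was 536 CPM and their median Cldn5 level 0 CPM.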

How the results depend on the processing

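Counts of genes past a fold depended on the settings. Of 10030 genes, 220 were 2-fold higher, 306 2-fold lower, 53 higher on every plate and 115 lower on every plate. With a pseudocount of 5 CPM these were 70, 136, 25 and 70, and with a filter at 20 CPM, which leaves 7400 genes, 64, 79, 26 and 47. With no filter 475 were 2-fold higher and 776 lower. Against the Mfsd2a-rich cells alone 96 were higher on every plate. Leaving out 1 plate in turn gave 309 to 340, 355 to 434, 142 to 149 and 215 to 244, where fewer cells enter and 3 plates have to pass. Members were 25.7% to 27.8% of cells without 1 plate, and 23.9% with no arterial gene at 20 CPM. Genes with the member level between capillary and venous numbered 1218 of 1683 (72.4%) and were 1360 to 1613 without 1 plate, where more genes were chosen (1964 to 2262) and the share was 68.4% to 71.3%, 406 of 513 (79.1%) for genes chosen at 4-fold, and 2901 of 4944 (58.7%) with the 18 Vcam1-positive cells of low Slc38a5 as the venous group. Apart from the changes whose construction is given, the cause was not tested.

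Over 21 alternatives, 2704 of 2730 log2 ratios of 130 single genes stayed within 1 SD of their plates. In either direction, 25 moved further. A change of sign was counted apart only for genes past a fold limit, and 1 turned. This was Cxcl10, at 2.10, which was -0.13 without cells with blood or microglia markers, an alternative added after seeing the data. Much of this agreement was built in: the filter settings cannot change a ratio, and leaving out 1 plate changes only part of the pool. Genes uneven over the plates stayed most easily, as Hey1 did at -2.76 against -1.96 (SD 0.95). Of 462 list medians 411 stayed and 51 moved. No paired analysis was possible because the labels give no replicate numbers and no animals.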
